A study of Mus musculus with 3 samples.

Results

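The circadian clock genes described here are 10 genes at the core of the molecular clock, Per1, Per2, Per3, Cry1, Cry2, Arntl (also called Bmal1), Clock, Dbp, Nr1d1 and Nr1d2. They were chosen by name and taken from 49377 genes listed in each of 3 RNA sequencing libraries, and all 10 were found, each as a single Ensembl gene. The libraries were made from the epidermis of the back of wild type C57BL/6 mice aged 7 weeks, whose hair follicles were in second telogen, a resting phase of hair growth. Cells released from the epidermis after thermolysin treatment were sorted with antibodies to CD34 and the integrin Itga6 into CD34-negative cells (N, called non-stem cells in the labels), CD34-positive cells with high Itga6 (B, basal stem cells of the bulge) and CD34-positive cells with low Itga6 (S, suprabasal stem cells of the bulge). The bulge is a swelling of the outer root sheath in which the follicle keeps its quiescent stem cells. Each population's RNA was a pool from 4 mice and was amplified before sequencing, so there was 1 library per group. No difference below was therefore tested against the spread between mice. The time of day at which the skin was taken, which bears on the level of any clock gene, is not given in the sources used here.

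The clock is a loop of transcription and repression that runs with a period of about a day in most cells. The proteins of Clock and Arntl pair up and switch on genes that carry an E-box, among them the Per and Cry genes, whose proteins return to the nucleus and block the pair. A further loop runs through the nuclear receptors of Nr1d1 and Nr1d2 (REV-ERB alpha and beta), which repress Arntl at ROR elements that the activating ROR receptors also bind, and an output arm runs through Dbp, which activates genes with a D-box. In skin the clock is known to time cell division in the epidermis and to take part in the onset of hair growth.

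The sequence elements of this loop can be read in the promoters of the member genes. Windows from 250 bases before to 50 after the start of transcription, from RefSeq on GRCm38.p6, were matched for 9 of 10 members, with 13 windows in all, and none was matched for Per2. Both strands were searched for the E-box CACGTG, its variant CACGTT, the D-box TTANGTAA, the ROR element and the cyclic AMP response element TGACGTCA. The 4 stretches below are shown because Per1 and Cry1 are the members that differed most between populations and both carry an E-box, while Per3 and Arntl carry the D-box and the ROR element. Capitals mark the matches (the variant reads AACGTG from its other strand), and each stretch reads 5′ to 3′ on the strand of its gene. For Per1 (chr11:69098699-69098948, plus strand), Cry1 (chr10:85185055-85185304, minus strand) and Per3 (chr4:151044666-151044915, minus strand) these are the 250 bases before a RefSeq start, and for Arntl (chr7:113207528-113207557, plus strand) a stretch of 30 bases that begins soon after one.
Per1: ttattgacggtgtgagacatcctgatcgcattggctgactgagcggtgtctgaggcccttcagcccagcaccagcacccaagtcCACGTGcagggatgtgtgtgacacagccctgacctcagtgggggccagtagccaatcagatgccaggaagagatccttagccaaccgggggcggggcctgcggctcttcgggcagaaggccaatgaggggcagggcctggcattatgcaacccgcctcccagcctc
Cry1: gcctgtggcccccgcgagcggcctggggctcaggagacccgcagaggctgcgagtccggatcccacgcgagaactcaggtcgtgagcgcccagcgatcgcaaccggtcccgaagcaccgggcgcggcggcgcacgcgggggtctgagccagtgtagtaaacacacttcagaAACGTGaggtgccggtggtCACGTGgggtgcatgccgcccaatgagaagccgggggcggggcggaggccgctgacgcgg
Per3: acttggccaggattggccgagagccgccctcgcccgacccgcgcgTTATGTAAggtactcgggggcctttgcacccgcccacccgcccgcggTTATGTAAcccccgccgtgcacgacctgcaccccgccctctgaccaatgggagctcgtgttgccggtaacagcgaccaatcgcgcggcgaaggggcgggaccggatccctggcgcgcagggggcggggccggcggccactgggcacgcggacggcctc
Arntl: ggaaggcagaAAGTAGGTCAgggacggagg

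The E-box CACGTG was found in the windows of 2 members, Per1 and Cry1, against 8.09% of 27025 genes with a window. Its variant was in the windows of 3 members (Cry1, Cry2 and Nr1d1), against 5.44% of genes. Per3 alone had the D-box, with 2 copies of TTATGTAA at positions -205 and -158 from the start, and 2.72% of genes had one. The ROR element stood in 1 of the windows of Arntl and was found for 0.829% of genes. No member window held TGACGTCA, which 2.03% of genes had. These matches are letters in a window of fixed length and were not tested for use in these cells, and Per1 has a further RefSeq start whose window held none of the 5 motifs.

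Levels are given as scaled FPKM, the deposited FPKM (fragments counted per kilobase of transcript, relative to library depth) divided by a factor that aligns the 3 libraries. They are per length, and levels of different genes are set side by side below, although amplification may distort such comparisons. The intervals in brackets after a level or a fold difference are 95% intervals for counting error alone, from estimated fragment numbers, and leave out amplification and differences between mice. Library depth came to about 35460000 fragments in N, against 32660000 in B and 31280000 in S. The gene for the sort antigen CD34 followed the gates, at 0.200 in N, at 144 in B and at 214 in S. The integrin gene Itga6 followed its gate between B (49.0) and S (32.9), although N was highest (114). The 6 markers of interfollicular and differentiating keratinocytes summed to 5023 in N, to 2613 in B and to 1372 in S. Krt14 (585, 275 and 12.7), Krt1 (256, 139 and 13.3) and Krtdap (2850, 1127 and 334.6) were highest in N and lowest in S. This is the order of Cry1, Per3, Clock, Bhlhe40, Hlf, Rora and Wee1 below, among others. Krt10 and Ly6a had the same order, while Krt5 was highest in S (813 in N, 805 in B and 954 in S). Of the 6 bulge markers, Krt15 (1008, 1844 and 3620), Lhx2 (0.905, 34.8 and 55.8), Lgr5 (1.04, 36.2 and 40.6) and Postn (23.5, 650 and 654) were lowest in N and highest in S. Cd34 went with them and Itga6 did not. Theirs is the order of Per1 and Nfil3 below, among others. Of 6 genes each, T and NK cells had a summed level of 19.7 in N against 5.99 in B and 1.91 in S, of which Thy1 made up 18.2, 4.96 and 0.669, and Cd3d was listed at 0 in S. Langerhans and myeloid genes summed to 44.8, 29.8 and 64.9. Epcam, which keratinocytes can also express, made up 24.4, 21.6 and 55.6 of this, while the antigen presentation genes H2-Aa (13.4, 4.78 and 4.48) and Cd74 (6.15, 3.02 and 3.97) were highest in N, and the Langerhans gene Cd207 was at most 0.341. Melanocyte genes summed to 2.38, 17.5 and 35.2, nearly all of it Mitf, with Dct, Tyrp1 and Mlana listed at 0 in N and Mlana at 0 in S. Fibroblast genes summed to 0.710, 14.1 and 27.0, with Col6a1 the main gene in B (13.8) and S (25.8), and Dcn in N (0.438, against 0.122 in B and 0.384 in S), while Col1a1 was at most 0.114 and Col3a1 listed at 0 in N. The 4 endothelial genes summed to at most 2.58, with Cdh5 listed at 0 in N. The 4 smooth muscle genes summed to at most 0.780, with Myh11 listed at 0 in N and Rgs5 at 0 in B. The part of such cells in the results below was not tested.

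**Figure D1:**
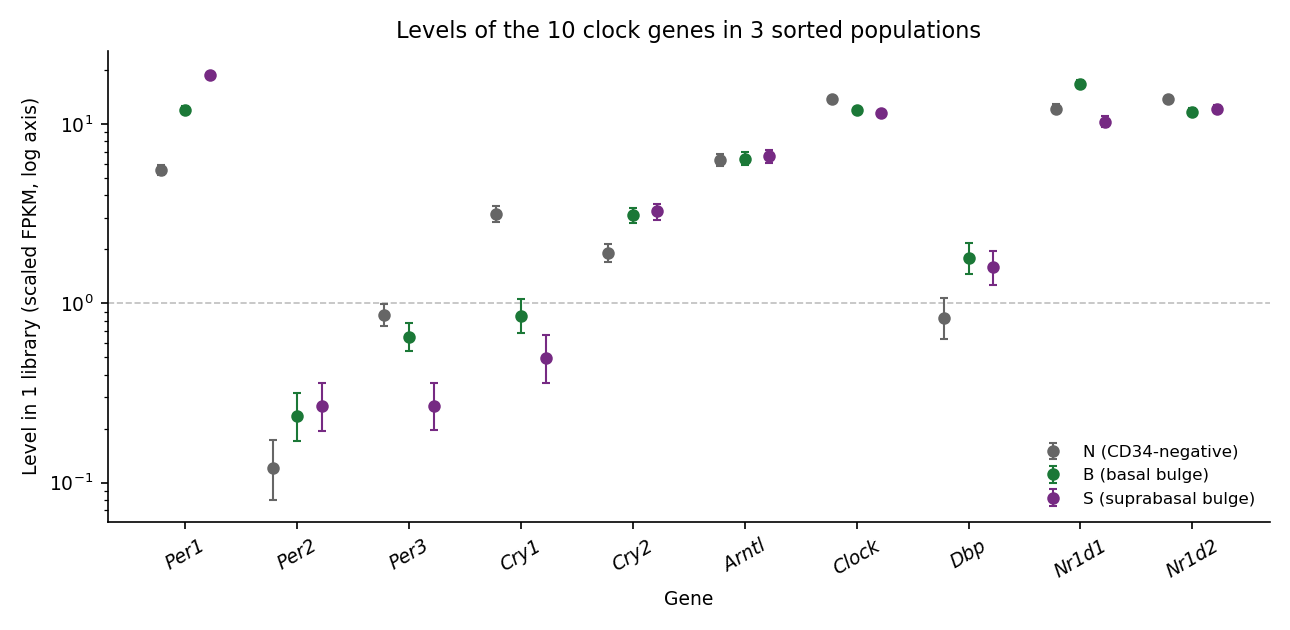
Level of each clock gene in the N, B and S libraries, in scaled FPKM on a log axis. Points are 1 library each, bars are 95% intervals for counting error only, and the dashed line marks a level of 1. Per1 climbs from 5.56 in N to 18.7 in S, Cry1 goes the other way from 3.16 to 0.495, and Arntl lies between 6.30 and 6.60 in all 3 libraries.

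Cry1 and Per1 had the widest spread over the 3 populations, in opposite directions, with a highest level 6.38 and 3.37 times the lowest. That ratio was 3.20 for Per3, 2.23 for Per2 and 2.16 for Dbp, which were all low, and 1.70 for Cry2 and 1.62 for Nr1d1. Arntl (1.05), Nr1d2 (1.18) and Clock (1.19) were near level. A gene was counted as higher or lower when the log2 ratio of scaled FPKM plus a pseudocount of 1 was at least 1 in size, which is 2-fold on that scale. Only genes with a mean of at least 1 over the libraries were counted, and 8 of 10 members passed this filter. Per3 (mean 0.595) and Per2 (mean 0.207) did not, and Dbp (mean 1.40) was the lowest that did. In B against N, 0 members were higher and 1 was lower (Cry1), while 14.4% of the 11580 genes measured were past the rule (7.25% higher and 7.1% lower). In S against N, 1 member was higher (Per1) and 1 lower (Cry1), with 20.4% of genes measured past the rule (9.57% higher and 10.9% lower). In S against B, 0 of the 8 were past it, with 9.84% of genes measured (3.89% higher and 5.94% lower). These counts of members are thus near the background of all genes. Over all 10 members the median log2 ratio was 0.08 in B against N, where the median of all genes measured was -0.04. It was -0.06 in S against N, where all genes had 0.02, and -0.01 in S against B, where all genes had 0.06. Over the 8 members that passed the filter, the median was 0.22 in B against N, -0.06 in S against N and -0.01 in S against B. The first comparisons share the N library, so Cry1 in both rests on 1 measurement of N.

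Among all genes measured, 840 were higher and 822 lower in B than in N, and 1108 higher and 1260 lower in S than in N. With the values as deposited these splits became 719 and 1101, and 859 and 1682, and the members past the rule were again Cry1 in the first and Per1 and Cry1 in the second.

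**Figure D2:**
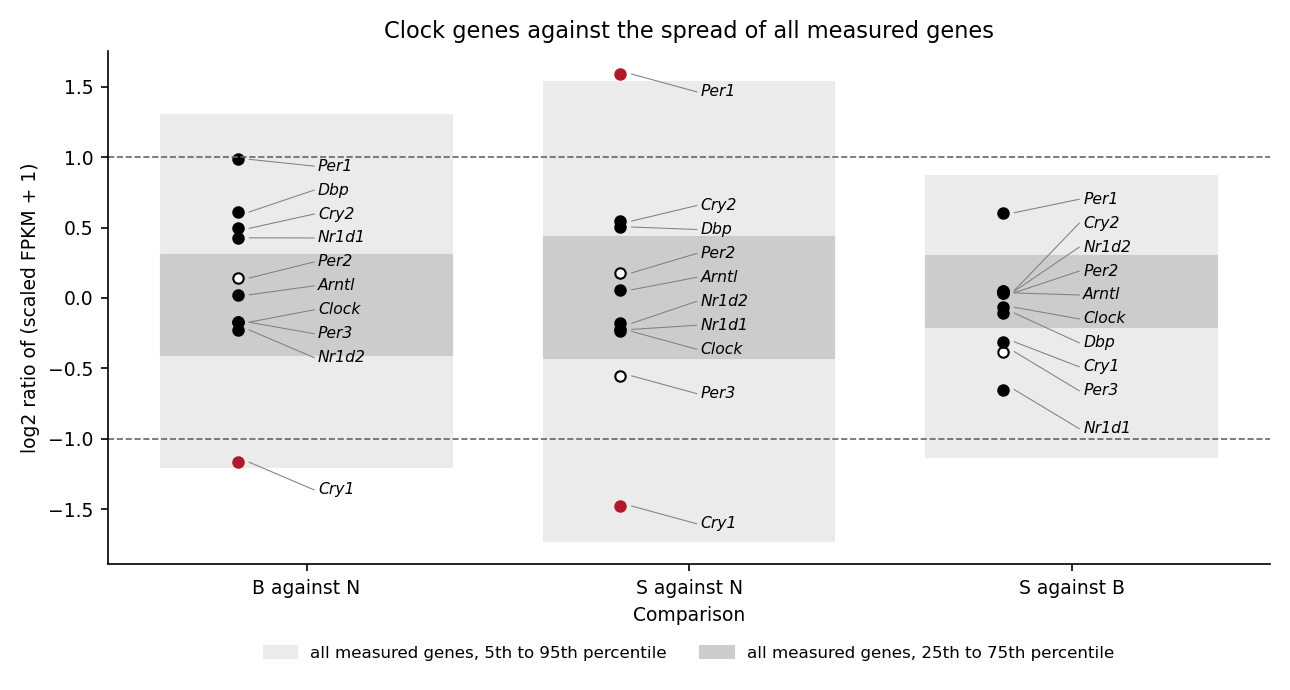
Log2 ratio of each clock gene in the 3 comparisons, on scaled FPKM plus 1. Red points are past the 2-fold rule (dashed lines), black points are not, and open points are Per2 and Per3, below the level filter. The bands show the 5th to 95th and the 25th to 75th percentile of the 11580 genes measured, and Per1 in S against N, at 1.59, lies just above the 95th percentile of 1.53.

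The repressor arm holds the 2 members past the rule, Per1 and Cry1. Per1 (ENSMUSG00000020893, chromosome 11, 69095217 to 69109960, mm10, plus strand) encodes a PERIOD repressor and is also known as a gene that answers quickly to cyclic AMP and glucocorticoid signals. Its level was 5.56 in N (5.22 to 5.91), 11.97 in B (11.4 to 12.5) and 18.7 in S (18.01 to 19.5), from about 1022, 1803 and 2541 fragments. The 3 counting intervals were apart, with N lowest and S highest. Per1 was 3.37-fold higher in S than in N (3.13 to 3.63), a log2 ratio of 1.59, and 10.4% of genes measured had a ratio at least that large in size. In B it was 2.15-fold higher than in N (2.00 to 2.33), with a log2 ratio of 0.98 that fell just short of the rule. With library factors from the total or the upper quartile of nuclear protein-coding genes, or with a pseudocount of 0.1, Per1 passed it in B as well. Between the bulge layers, Per1 was 1.56-fold higher in S than in B (1.47 to 1.66). As these are pools of sorted cells, more cells with the transcript and more transcript per cell cannot be told apart, here or for any gene below.

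Per2 (ENSMUSG00000055866, chromosome 1, 91415982 to 91459324), the closest relative of Per1 in the loop, was barely detected. It was at 0.120 in N (0.0798 to 0.173), 0.235 in B (0.171 to 0.316) and 0.267 in S (0.195 to 0.358), with 28 to 45 fragments in a library. The intervals of B and S overlapped, and that of N touched B's. Per3 (ENSMUSG00000028957, chromosome 4, 151003652 to 151044665), a PERIOD gene known mainly as a modifier of the clock, was at 0.862 in N (0.748 to 0.989), 0.653 in B (0.544 to 0.777) and 0.269 in S (0.198 to 0.358). Its level in S was 3.202-fold below N (2.321 to 4.494), opposite in direction to Per1, although at these low levels the log2 ratio with the pseudocount was -0.55. Per3 lies within the span of Camta1 on the same strand but shares no exon with it. Camta1 was at 17.8 in N, at 14.6 in B and at 27.7 in S, above Per3 in each library. The part of Camta1 reads in the Per3 levels was not tested. Of the summed level of the Per genes, Per1 made up 85.0% in N, 93.1% in B and 97.2% for S.

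The Cry genes, which encode the cryptochromes that bind and silence the Clock and Arntl pair, differed from each other. Cry1 (ENSMUSG00000020038, chromosome 10, 85131700 to 85185064, minus strand) was at 3.16 in N (2.85 to 3.50), 0.855 in B (0.681 to 1.06) and 0.495 in S (0.360 to 0.665), from about 377, 83 and 44 fragments. It passed the filter through N, since both bulge libraries were below 1. N exceeded B 3.699-fold (2.924 to 4.773) and S 6.384-fold (4.615 to 8.842), with log2 ratios of -1.17 for B and -1.48 for S, and 11.0% and 11.8% of genes measured had ratios as large. The intervals of B and S did not overlap. Cry2 (ENSMUSG00000068742, chromosome 2, 92403646 to 92434043, minus strand) was at 1.91 in N (1.70 to 2.14), 3.10 in B (2.81 to 3.42) and 3.25 in S (2.93 to 3.60). The B and S levels overlapped within counting error and both lay above N, 1.62-fold (1.39 to 1.89) and 1.70-fold (1.46 to 1.99), below the 2-fold rule. Cry1 thus formed 62.3% of the summed Cry level in N, 21.6% in B and 13.2% in S, while the sum itself was 5.08, 3.96 and 3.75. Cry2 shares 295 of its 6320 exonic bases with D930015M05Rik on the opposite strand, a transcript at no more than 0.232 in any library.

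The activator arm was near level across the populations. Arntl (ENSMUSG00000055116, chromosome 7, 113207465 to 113314126, plus strand), the partner of Clock without which the loop stops, was at 6.30 in N (5.85 to 6.77), 6.41 in B (5.92 to 6.94) and 6.60 in S (6.07 to 7.17). All 3 intervals overlapped. The fold difference was 1.02 in B over N (0.914 to 1.13), 1.05 in S over N (0.937 to 1.17) and 1.03 in S over B (0.916 to 1.15), and its sign turned with the library factors. Clock (ENSMUSG00000029238, chromosome 5, 76209868 to 76304792, minus strand) was at 13.7 in N (13.3 to 14.1), 12.1 in B (11.7 to 12.4) and 11.5 in S (11.1 to 11.9). N lay outside the counting intervals of the bulge libraries, yet S was at 0.837 of N (0.801 to 0.875), a gap under the size rule. Over the sets of library factors, the log2 ratio of Clock ran from -0.33 to -0.04 in B against N. In S against N it ran from -0.48 to -0.15, and its sign did not turn in either. The level of Clock was above that of Arntl by a ratio of 2.18 in N against 1.88 in B and 1.74 in S.

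The REV-ERB genes, which repress Arntl, were among the most abundant members. Nr1d1 (ENSMUSG00000020889, chromosome 11, 98767932 to 98775333, minus strand) was at 12.2 in N (11.5 to 12.9), 16.7 in B (15.9 to 17.6) and 10.3 in S (9.597 to 11.02). B was highest and its interval was apart from the others. S was at 0.616 of B (0.564 to 0.671), a log2 ratio of -0.65. With the pseudocount, this was the largest size among the members between the bulge layers, just ahead of Per1 (0.61 with the opposite sign). Without the pseudocount, B was further above S for Per3 (2.42-fold, 1.72 to 3.45) and Cry1 (1.73-fold, 1.17 to 2.51), both low. Nr1d1 shares 263 of its 3077 exonic bases with the thyroid hormone receptor gene Thra on the opposite strand, which was at 5.51 in N, at 10.003 in B and at 20.3 in S. No source used here says that strand was counted, so reads of the shared stretch cannot be assigned with certainty. The order of the libraries differed between Thra and Nr1d1, but the part of Thra reads in the Nr1d1 levels was not tested. Nr1d2 (ENSMUSG00000021775, chromosome 14, 18204054 to 18239127, minus strand) was at 13.9 in N (13.3 to 14.4), 11.7 in B (11.2 to 12.3) and 12.1 in S (11.6 to 12.7). The B and S intervals overlapped, and the ratio of B to N was 0.844 (0.794 to 0.897). Over the sets of library factors, the log2 ratio of Nr1d2 in B against N ran from -0.39 to -0.09.

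Dbp (ENSMUSG00000059824, chromosome 7, 45705088 to 45710203, plus strand), the D-box activator and in many tissues a strongly cycling output of the loop, was low. It was at 0.828 in N (0.632 to 1.07), 1.79 in B (1.47 to 2.17) and 1.59 in S (1.27 to 1.97), from 60, 106 and 85 fragments. The bulge libraries overlapped each other and lay above N, 2.16-fold in B (1.56 to 3.01) and 1.92-fold in S (1.36 to 2.72). On the scale with the pseudocount the log2 ratios were 0.61 and 0.50, and with a pseudocount of 0.1 Dbp passed the rule in B. Of its 2993 exonic bases, 539 are shared with Sphk2 on the opposite strand, which was at 5.97 in N, at 4.31 in B and at 5.03 in S, above Dbp in each library, so reads of the shared stretch cannot be told apart.

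Ranked by level, the members fell into a similar order in the 3 libraries. Nr1d2, Clock and Nr1d1 led in N, and Nr1d1, Clock and Per1 in B, while Per1 led in S, followed by Nr1d2 and Clock. Neighbours whose counting intervals overlapped were Nr1d2 and Clock, Arntl and Per1, and Per3 and Dbp in N. In B they were Clock and Per1, Per1 and Nr1d2, and Cry1 and Per3, and in S they were Nr1d2 and Clock, and Per3 and Per2. Per2 was last in each library. The largest shift in place was that of Per1, from the fifth in N to the third in B and the first in S.

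The genes whose pattern over the 3 libraries lay closest to that of Per1 were Card19, Capg and Idh2, among 5230 protein-coding genes with a mean of at least 5. Their distances, on centred log2 values, were 0.06, 0.06 and 0.07. Capg, which encodes an actin-capping protein, was at 21.6 in N, at 44.4 in B and at 64.3 in S, and Idh2, a mitochondrial isocitrate dehydrogenase gene, at 6.81, 14.9 and 21.5. Closest to Cry1 were Hs3st6, Acot9 and Cst6, each at a distance of 0.03. Cst6, a protease inhibitor gene of the cornifying epidermis, was at 14.2 in N, at 5.56 in B and at 4.40 in S. The distances were taken with the pseudocount of 1, which shrinks the ratios of a low gene such as Cry1 most. Without it, Cry1 in N was 6.384-fold its level in S (4.615 to 8.842). From N to S, Hs3st6 (14.1 and 4.27), Acot9 (27.0 and 8.84) and Cst6 fell by less than that interval. Their closeness to Cry1 thus holds only on the scale with the pseudocount. With only 3 libraries, a small distance is easily reached by many genes.

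Further transcription factors feed into the loop, and among them Nfil3 was highest in S, Tef in B and Bhlhe40, Hlf and Rora in N. Of 12 listed, 9 were measured. In B against N, 2 were higher and 2 lower, in S against N 1 was higher and 4 were lower, and in S against B 1 was higher and 3 lower. Of all genes measured, 14.4%, 20.4% and 9.84% were past the rule in either direction, and the difference from that background was not tested. These counts were the same with the other 3 sets of library factors. The median log2 ratio over all 12 listed was -0.05, -0.26 and -0.37 in these comparisons, and over the measured 9 it was -0.17, -0.56 and -0.51, where all genes measured had -0.04, 0.02 and 0.06.

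Nfil3, a repressor that competes with Dbp for the D-box, was at 3.39 in N, at 9.78 in B and at 47.1 in S. S was 13.9-fold above N (12.2 to 15.8) and 4.82-fold above B (4.42 to 5.26). The D-box activators related to Dbp went other ways. Tef was highest in B, at 17.3 against 4.504 in N and 6.81 in S, so that B was 3.85-fold above N (3.55 to 4.18) and 2.55-fold above S (2.36 to 2.75). Hlf, named after its values were seen because its mean was under 5, was at 6.90 in N, at 2.43 in B and at 0.09962 in S, the last from about 16 fragments. Its level in N was 69.3-fold that in S (43.4 to 124). The summed level of Dbp, Tef and Hlf was 12.2 in N, 21.6 in B and 8.50 in S, so Nfil3 stood at 0.277, 0.454 and 5.54 times that sum.

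Bhlhe40 encodes DEC1, a repressor that competes for the E-box. It was at 13.6 in N, at 3.47 in B and at 0.811 in S, an order shared with Cry1. N was 3.91-fold above B (3.48 to 4.40) and 16.7-fold above S (13.3 to 21.5). Its relative Bhlhe41 was at most 0.501. Of the substitutes for Clock and Arntl, named after their values were seen, Npas2 was at 2.49 in N, at 3.27 in B and at 1.38 in S, and Arntl2 at 4.46, 2.42 and 1.46, with Arntl2 lower in S than in N by the 2-fold rule.

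Rora encodes a ROR receptor, an activator of Arntl at the element that the REV-ERB proteins also bind. It was at 21.4 in N, at 11.6 in B and at 7.84 in S, and N was 2.73-fold above S (2.61 to 2.86). Its relative Rorb was at most 0.0426. The repressors at this element, Nr1d1 and Nr1d2, summed to 26.1 in N, to 28.4 in B and to 22.4 in S.

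**Figure D3:**
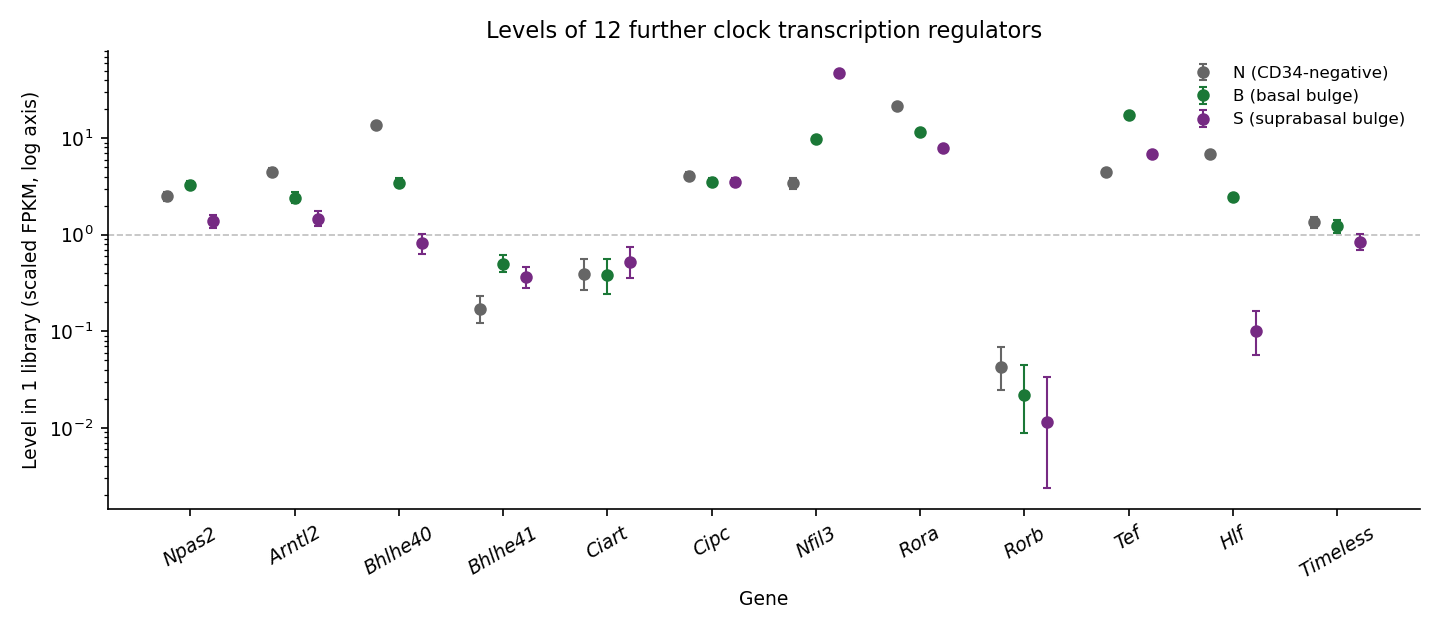
Level of 12 further transcription regulators of the clock in the N, B and S libraries, in scaled FPKM on a log axis, with 95% bars for counting error only. Nfil3 is highest in S (47.1), Tef in B (17.3), and Bhlhe40, Rora and Hlf in N (13.6, 21.4 and 6.90). The dashed line marks a level of 1.

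Genes that modify clock proteins or mark them for removal mostly stayed within the rule. Of 16 listed, 15 were measured, and 1 was higher in each comparison and 0 were lower. Of all genes measured, 7.25% were higher in B against N, 9.57% in S against N and 3.89% in S against B. The shares that were lower are 7.1%, 10.9% and 5.94%. Most genes measured thus stayed within the rule too. The median log2 ratio over the measured 15 was -0.33 in B against N, 0.11 in S against N and 0.19 in S against B. All genes measured had -0.04, 0.02 and 0.06, and a difference of this list from them was not tested. The gene past the rule was Usp2, a deubiquitinase gene, in both comparisons with N (2.16 in N, 5.37 in B and 6.26 in S), and Csnk1e in S against B (2.78 in B, 7.57 in S and 3.42 in N). Both were named after their values were seen, and Usp2 in B, at a log2 ratio of 1.01, was under the rule with the values as deposited. In S against N, 3 genes passed with libraries set to the same nuclear protein-coding total. The ubiquitin ligase subunit gene Btrc, also named after its values were seen, was at 0.726 in N, at 1.54 in B and at 2.35 in S, which is 3.24-fold above N (2.51 to 4.21) but short of the rule on the scale with the pseudocount. Fbxl21, at 0.132, 0.825 and 1.47, was the gene below the level filter. Csnk1e encodes casein kinase 1 epsilon, which phosphorylates PERIOD proteins. Its relative Csnk1d was at 12.4 in N, at 9.19 in B and at 10.5 in S, and was also named after its values were seen. By the size of their ratios the genes named by rule were the deacetylase gene Sirt1 (18.04 in N, 12.5 in B and 16.4 in S), Fbxw11, a ligase subunit gene for PERIOD proteins (10.6, 7.25 and 10.5), the kinase gene Gsk3b (20.02, 15.7 and 21.7) and Nono (58.3, 43.5 and 43.2), and each stayed within the rule.

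Of the genes known to be driven by the clock, few were past the rule, and these were lower in the bulge populations than in N. All 10 listed were measured. In B against N, 0 were higher and 1 lower, in S against N 0 were higher and 2 lower, and in S against B 0 passed the rule. With the values as deposited, 3 were lower in S against N. The shares of all genes measured that were lower are 7.1%, 10.9% and 5.94%, and the difference of these small counts from them was not tested. The median log2 ratio of the list was -0.44 in B against N, -0.19 in S against N and -0.12 in S against B, where all genes measured had -0.04, 0.02 and 0.06. Wee1, a kinase gene that delays entry into mitosis and is a classical E-box target, was at 20.5 in N, at 7.36 in B and at 6.82 in S, so that N was 2.79-fold above B (2.58 to 3.02) and 3.01-fold above S (2.77 to 3.28). The other gene lower in S was Lonrf3, named after its values were seen, at 2.07 in N, at 0.9204 in B and at 0.144 in S, and it passed the level filter through N alone. Tsc22d3 and Fkbp5, both also known as glucocorticoid-induced genes, were highest in B, at 44.9 and 11.1 against 24.4 and 6.10 in N and 24.9 and 6.79 in S, short of the rule. The cell cycle inhibitor gene Cdkn1a was at 125 in N, at 93.4 in B and at 183 in S.

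Per1 also belongs to the genes that respond within minutes to signals through the factor CREB, so a list of CREB and immediate early genes is given beside it. All 12 were measured, and 0 were higher in either bulge population than in N, while 2 were lower in B and 3 in S, where 7.1% and 10.9% of all genes measured were lower. The median log2 ratio was -0.74 in B against N (-0.04 over all genes measured) and -0.54 in S against N (0.02). The count for S moved between 1 and 5 genes with the library factors, being 1 with the same nuclear protein-coding total, where Fosb and Ier2 no longer passed, and 5 with the values as deposited, where Atf3 and Dusp1 passed as well. Nr4a1 was at 39.2 in N, at 19.3 in B and at 6.39 in S, Atf3 at 156, 63.9 and 83.2, Sik1 at 12.2, 4.79 and 8.40, and Ier2 at 20.8, 12.01 and 9.72. In S against B, 0 of the 12 were higher and 1 was lower, where 3.89% and 5.94% of all genes measured were. The median log2 ratio of the list there was 0.17 (0.06 over all genes measured). The order of Per1, lowest in N and highest in S, was shared by 1 of the 12 genes, Creb1, at 15.7, 22.4 and 26.1. Jun (74.8, 63.4 and 102) and Egr1 (134, 123 and 185), named after their values were seen, were also highest in S but lowest in B. Whether the release and sorting of cells changed these genes was not tested.

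**Figure D4:**
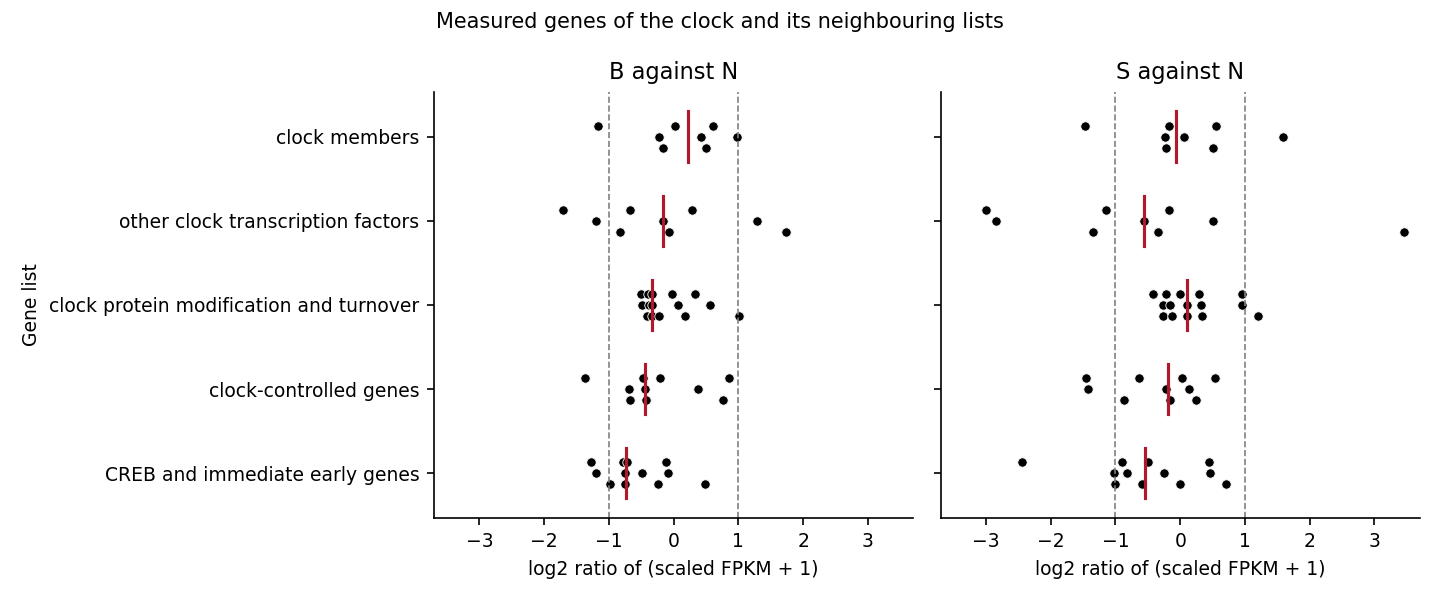
Log2 ratio of each measured gene of 5 lists, in B against N and in S against N, on scaled FPKM plus 1. Each point is a gene, the red bar is the median of the list, and dashed lines mark the 2-fold rule. The other clock transcription factors spread from -3.01 (Bhlhe40) to 3.45 (Nfil3) in S against N, while the members run from -1.48 (Cry1) to 1.59 (Per1).

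**Figure D5:**
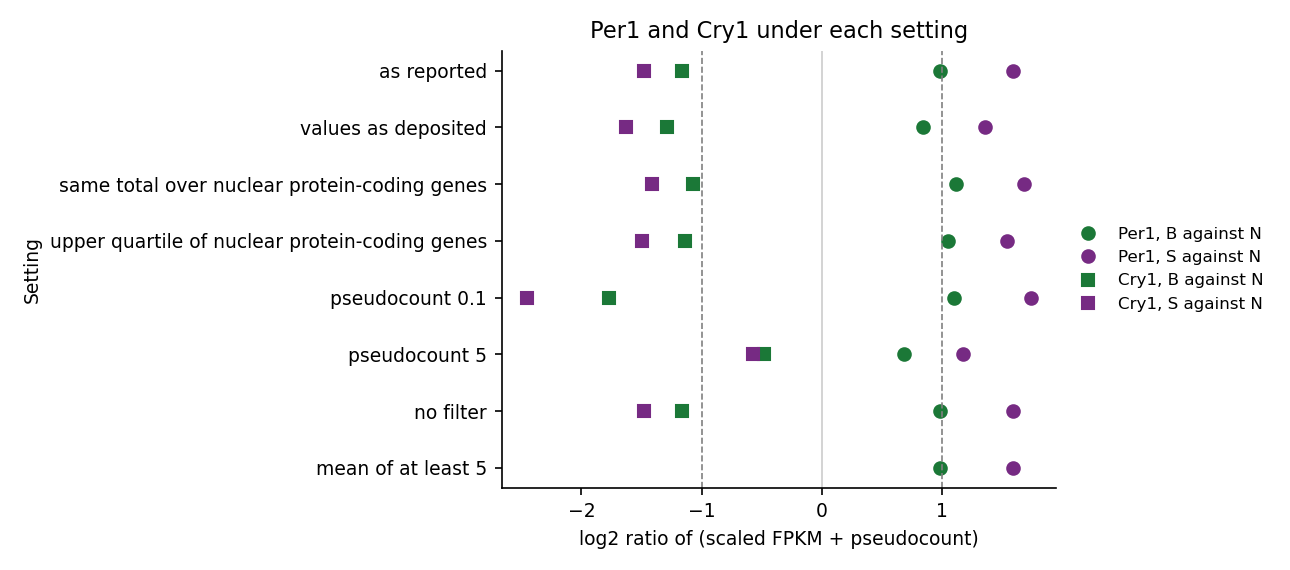
Log2 ratio of Per1 (circles) and Cry1 (squares) against N, for B in green and S in purple, under each setting of library factors, pseudocount and level filter. Per1 in S stays past the 2-fold rule (dashed lines) throughout, between 1.17 and 1.74, Per1 in B lies on both sides of it, between 0.69 and 1.11, and Cry1 is within the rule with a pseudocount of 5 and is left out by a mean of at least 5.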

How the data were processed

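Each of 3 pooled libraries had 1 table of 49452 Ensembl genes. The authors deposited FPKM values with gene positions, per the file headers for N and S, while for B the unit was read from the values. The submitters' processing notes list TopHat2 2.0.12, Cufflinks 2.1.1, DESeq2 and mm10 without saying what each did. The annotation is not given in the sources used here. Symbols came from a table of gene names (49109 rows) and GENCODE M21 (86), and rows of 1 symbol were summed. All 10 members had the same position in GENCODE M21.

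Scaling used median-of-ratios factors from 18618 genes above 0 in each library (1.11 for N, 0.987 for B and 0.928 for S). A mean of at least 1 was required (11580 genes), and log2 ratios used a pseudocount of 1. Depth was read from the steps between values under 10 fragments of single-exon genes of at least 3000 bp, and 94.6% to 97.4% of these came within 0.1 of a whole number (chance gives 20.0%). Fragments per gene are estimates from the longest protein-coding transcript, and intervals (Poisson for levels, Clopper-Pearson for ratios) cover counting error only. Amplification from poly(T) and random primers, per the labels' protocols, keeps non-polyadenylated RNA and may distort levels in ways these intervals leave out.

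Members, lists and the naming rule were chosen with earlier results of these data known. Per list the text names the 4 genes with the largest ratio and a mean of at least 5. Per member past 2-fold, it names the 3 genes nearest in pattern. Creb1, Fosb, Dusp1, Bhlhe41, Rorb and Fbxl21 fell outside these rules and were also named after their values were seen. Other genes of these lists named otherwise are said to be so. Of the lists, 2 genes are not reported here and were left out of their counts. The 9 alternatives were other library factors, pseudocounts, filters and size rules. Code was tested on simulated data. Python 3.11.15, numpy 2.4.6 and scipy 1.17.1 were used.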

Additional observations from a re-analysis of the deposited data

How the results depend on the processing

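With 1 library per group, leaving out a library could not be tried. The number of members past the rule in B against N was 1, and it became 2 with the same nuclear protein-coding total and with the upper quartile, 3 with a pseudocount of 0.1 and at 1.5-fold, and 0 with a pseudocount of 5, with a mean of at least 5 and at 3-fold. In S against N it was 2, and 1 with a pseudocount of 5, with a mean of at least 5 and at 3-fold, where Per1 remained and Cry1 did not. In S against B it was 0, and 2 at 1.5-fold (Per1 higher and Nr1d1 lower in S). Changes of count with a pseudocount, filter or size rule follow from their construction. The other 16 alternative counts were within 1.5 times the reported ones. Leaving out the level filters, which cannot move the ratio of a single gene, 89 of the alternative log2 ratios and medians lay within counting error of the reported value and 46 did not, and 0 past the rule changed sign. As deposited, the median log2 ratio of all genes was -0.18 in B against N and -0.18 in S against N. The same nuclear protein-coding total gave 0.07 and 0.10. Depth limits Per2, Per3, Cry1 and Dbp, which rested on fewer than 100 fragments in at least 1 library.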
